A study of Mus musculus with 2 samples.

Results

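The genes described here encode the cytosolic and organellar heat shock chaperones and their J-domain partners, in epididymal white adipose tissue of mice lacking the nuclear receptor PPARβ/δ and of wild-type mice. Members were the probe sets whose single annotated symbol begins with Hspa, Hspb, Hspd, Hspe, Hsph, Hsp90, Dnaja, Dnajb or Dnajc, without the endoplasmic reticulum genes Hspa5, Hsp90b1 and Dnajb9. The rule found 117 of 22690 probe sets, which represent 58 of 12394 genes. Of these, 8 are genes that textbooks describe as made mainly in male germ cells and are called testis-enriched below, and the other 50 are called general. The lists were drawn up with earlier results of these data known, so the comparison of the groups is a description only. The testis-enriched names Hspb9 and Dnajc5g were not analysed here.

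The knockout sample was the pooled RNA of 5 male PPARβ/δ knockout mice aged 12 weeks on a mixed Sv129/C57BL/6 background. The wild-type sample was the pooled RNA of 5 male mice aged 12 to 16 weeks, which the sample label calls 129S1/SvJae and the design text calls littermates of the mixed background. All animals ate standard chow. Each pool was hybridised to 1 array, so each gene has 1 knockout value and 1 wild-type value, and there is no spread between animals and no test. The number of arrays limits the precision. Probe sets of the same gene give a partial measure of technical error, which leaves out error between arrays and between pools. Their log2 differences had a median SD of 0.25 over 2137 genes with more than 1 probe set at an intensity of 32 or more. Ppard itself, the targeted gene, was read by 1 probe set that did not reach that intensity in either pool (6.27 in the knockout and 6.58 in the wild-type pool), so it gives no check of the labels. The sources used here do not say which part of the gene was disrupted.

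HSP70 proteins bind unfolded stretches of other proteins and release them in a cycle driven by ATP. J-domain proteins, named DnaJ after the bacterial member, deliver substrates to HSP70 and trigger its ATP hydrolysis, and HSP110 proteins of the Hsph and Hspa4 groups exchange its nucleotide. HSP90 matures kinases and steroid receptors, Hspd1 and Hspe1 form the folding chamber of the mitochondrion, and small heat shock proteins hold unfolded proteins without ATP. Several of these genes are induced by heat through heat shock factor 1, whereas others are switched on in meiotic cells and spermatids, where the cAMP-responsive activator CREM drives many genes.

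Upstream sequences are shown first for members of both kinds, because Hspa1l, a spermatid HSP70, lies next to the heat-inducible Hspa1a in the gene records of GRCm38.p6. The 250 bases before the start site were taken from RefSeq (GRCm38.p6). They lie at chr17:34972453-34972702 on the plus strand for Hspa1l, chr1:88205749-88205998 on the minus strand for Dnajb3 and chr15:81408274-81408523 on the minus strand for Dnajb7, and at chr17:34972157-34972406 on the minus strand for Hspa1a and chr5:135887669-135887918 on the plus strand for Hspb1. Capitals mark the core of a heat shock element, GAANNTTC, and the half-site of a cAMP response element, TGACG, each on either strand. No match of one motif overlapped a match of the other in these sequences. The Dnajb3 sequence lies inside the span of Ugt1a2 and related genes and the Dnajb7 sequence inside that of Xpnpep3, and the others overlap no protein-coding gene.
Hspa1l: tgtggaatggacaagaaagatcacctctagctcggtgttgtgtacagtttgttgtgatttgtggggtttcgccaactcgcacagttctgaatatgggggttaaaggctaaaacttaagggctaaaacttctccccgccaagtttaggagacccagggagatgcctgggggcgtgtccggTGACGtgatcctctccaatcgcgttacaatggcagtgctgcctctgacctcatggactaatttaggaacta
Dnajb3: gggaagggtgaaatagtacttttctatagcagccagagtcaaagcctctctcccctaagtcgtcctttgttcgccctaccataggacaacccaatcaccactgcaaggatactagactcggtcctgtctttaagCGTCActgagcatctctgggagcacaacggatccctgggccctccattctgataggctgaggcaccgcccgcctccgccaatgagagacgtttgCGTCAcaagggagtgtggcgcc
Dnajb7: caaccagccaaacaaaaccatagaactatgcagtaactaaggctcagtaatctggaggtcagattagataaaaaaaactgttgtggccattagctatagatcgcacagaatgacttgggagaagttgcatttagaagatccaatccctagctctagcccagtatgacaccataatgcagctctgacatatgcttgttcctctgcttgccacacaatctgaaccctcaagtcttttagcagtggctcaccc
Hspa1a: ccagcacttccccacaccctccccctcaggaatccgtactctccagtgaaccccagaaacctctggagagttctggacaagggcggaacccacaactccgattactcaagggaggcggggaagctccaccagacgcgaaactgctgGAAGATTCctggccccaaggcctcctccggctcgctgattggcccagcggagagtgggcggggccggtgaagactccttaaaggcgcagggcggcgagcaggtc
Hspb1: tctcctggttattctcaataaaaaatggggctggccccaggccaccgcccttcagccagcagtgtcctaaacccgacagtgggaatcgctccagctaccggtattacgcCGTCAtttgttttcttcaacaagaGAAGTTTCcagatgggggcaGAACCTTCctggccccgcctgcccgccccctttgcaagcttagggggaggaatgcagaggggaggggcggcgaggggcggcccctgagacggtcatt
The Hspa1l sequence holds 1 TGACG match and the Dnajb3 sequence 2, while the Dnajb7 sequence holds neither motif. Hspa1a has 1 GAANNTTC match, and Hspb1 has 2 beside 1 TGACG match. Among the 7 testis-enriched genes with an upstream sequence, counting any start site of a gene, 0 had GAANNTTC and 4 had TGACG (Hspa1l, Hspa2, Hspa4l and Dnajb3). Among the 40 general genes with a sequence, 10 had GAANNTTC and 16 had TGACG. Of the 10, 6 belong to the list of the heat-inducible core, in which 11 genes had a sequence: Hspa1a, Hspa1b, Hspb1, Hspd1, Hspe1 and Dnaja1. The same core had TGACG in 6 of 11 genes (54.5%), close to the 4 of 7 (57.1%) of the testis-enriched genes. Over all 27025 genes of the table, 7.73% had GAANNTTC and 19.8% had TGACG in a window of the same length. These are letter matches in a short window and say nothing about binding.

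Every one of the 8 testis-enriched members was higher in the knockout pool. An intensity of 32 (log2 of 5) was used as the floor above which a probe set counts as measured, and genes were kept when they reached it in at least 1 pool. All 8 were kept, 6 of them through the knockout pool alone, so for those the filter itself required a difference. Their log2 differences, knockout minus wild type, ran as measured from 3.59 to 5.88 with a median of 4.57. With wild-type values under the floor raised to it they ran from 2.22 to 5.17 with a median of 4.27, beside a median of -0.08 over all 6533 kept genes. Of all kept genes, 13.7% reached 2-fold in favour of the knockout pool and 9.14% reached it in favour of the wild-type pool.

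Among the germ cell HSP70 genes, Hspa2, needed for meiosis in mouse spermatocytes, was at 833 in the knockout pool and 45.1 in the wild-type pool, an 18.5-fold difference. Hspa1l, the HSP70 of spermatids, was at 643 in the knockout pool and 14.4, under the floor, in the wild-type pool, which is at least 20.1-fold higher. Hspa4l, an HSP110-type exchange factor, was at 3222 in the knockout pool and 122 in the wild-type pool, a 26.4-fold difference. Hspa2 and Hspa4l were thus the only ones of the 8 above the floor in both pools. A second probe set of Hspa4l was at 111 in the knockout pool and 26.5, under the floor, in the wild-type pool, at least 3.45-fold higher.

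The wild-type values of the testis-enriched J-domain genes were all under the floor. Dnajc5b, a paralog of the vesicle protein cysteine string protein, was at 1151 in the knockout and 19.5 in the wild-type pool (at least 36.0-fold higher). Dnajb3, a spermatid J-domain protein, was at 898 in the knockout and 19.4 in the wild-type pool (at least 28.1-fold). Dnajb13, a radial spoke protein of the sperm tail, was at 275 in the knockout and 17.8 in the wild-type pool, at least 8.60-fold. The remaining genes of this kind, Dnajb7 and Dnajb8, were 364 and 149 in the knockout pool, against 17.0 and 12.4 in the wild-type pool, or at least 11.4-fold and 4.65-fold higher. In the knockout pool all 5 were above the floor.

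**Figure D1:**
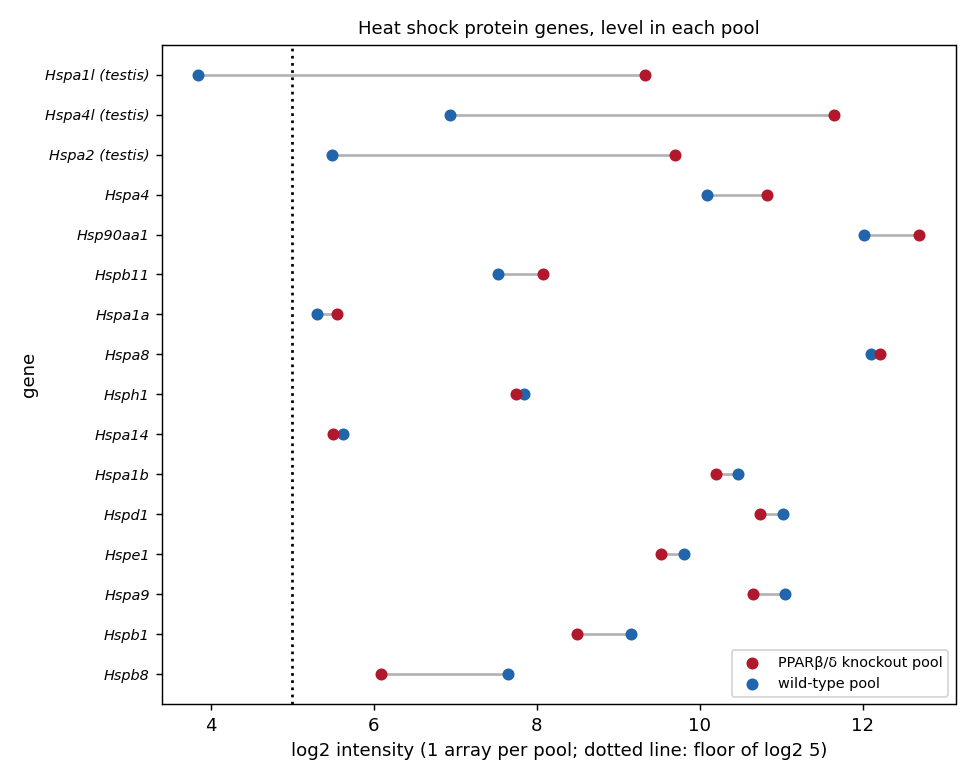
Log2 intensity of each kept heat shock protein gene in the knockout pool (red) and the wild-type pool (blue), 1 array per pool, sorted by difference with the largest at the top; the dotted line is the floor of log2 5. The testis-enriched genes Hspa1l, Hspa4l and Hspa2 head the plot with differences of at least 4.33 (5.48 as measured), 4.72 and 4.21, and Hspb8 stands last at -1.56.

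Marker lists of other cell types differed between the pools in unlike directions. All 19 measured germ cell markers of a list of 20 exceeded 2-fold on the knockout side. As measured, their median log2 difference was 4.77 and the differences ran from 2.25 to 6.45. Their summed intensity was 71369 in the knockout and 3895 in the wild-type pool. Of the 19, 6 had wild-type values under the floor and were kept through the knockout pool alone, so for those the filter itself required a difference. With values under the floor raised to it, the germ cell median was 4.51. Epididymis markers were above the floor in both pools for all 10 measured genes of 14 listed, with sums of 60424 in the knockout and 50945 in the wild-type pool. Single genes ran from 54.2 to 15840.5 in the knockout and from 33.0 to 14905 in the wild-type pool. Of the 10, 9 were higher in the knockout pool, where 44.4% of all kept genes were higher. Their median difference was 0.52, and 1 (10%) reached 2-fold. Of 13 adipocyte markers 12 were lower in the knockout pool (median -1.09, sums of 48029 in the knockout and 73306 in the wild-type pool), and all 10 macrophage markers were lower (median -0.86, sums of 2768 in the knockout and 4675 in the wild-type pool). Adipocyte markers such as Adipoq (8030 in the knockout and 10259 in the wild-type pool) were present in both pools. In bulk tissue, more cells of a type and more RNA per cell cannot be told apart, and the part of these cell types in the chaperone differences was not tested.

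Of the 50 general genes 42 were kept, and 26 of these (61.9%) were higher and 16 lower in the knockout pool, where 44.4% of all kept genes were higher. Their median log2 difference was 0.12 with quartiles of -0.28 and 0.72, beside a median of -0.08 and quartiles of -0.50 and 0.42 over all kept genes. At least 2-fold higher were 6 of the 42 (14.3%), close to the 13.7% of all kept genes, and 1 was at least 2-fold lower (2.38%, against 9.14% of all kept genes). The other 35 lay between -0.68 and 0.88. The medians of the testis-enriched and the general members were 4.45 apart as measured, and 4.15 apart with values under the floor raised to it. Below the floor in both pools were 8 general genes: Hspa12b, Hspb2, Hspb3, Hspb7, Hspbp1, Dnajc17, Dnajc27 and Dnajc28, with no value over 29.7. Hspb2, Hspb3 and Hspb7 are among the small heat shock proteins of muscle and heart.

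**Figure D2:**
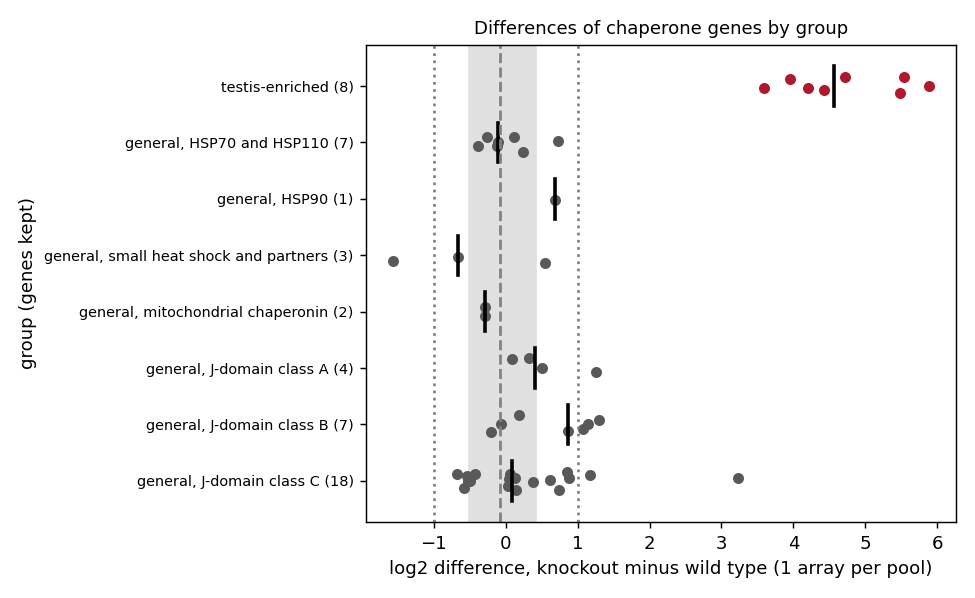
Log2 difference, knockout minus wild type, of each kept member (points) by group, with the group median as a black bar; the grey band spans the quartiles of all 6533 kept genes, the dashed line is their median and dotted lines mark 2-fold. As measured, the 8 testis-enriched genes lie from 3.59 to 5.88 and the general gene Dnajc18 at 3.24; with wild-type values raised to the floor, Dnajc18 at 2.48 lies above the testis-enriched Dnajb8 at 2.22.

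The general HSP70 and HSP110 genes differed by less than 2-fold, all 7 of them, with a median of -0.11. Hspa8, the constitutive cytosolic HSP70, was at 4763 in the knockout and 4412 in the wild-type pool, a log2 difference of 0.11, and its other probe sets above the floor differed by -0.14 and -0.19. The heat-inducible Hspa1a was at 46.7 in the knockout and 39.3 in the wild-type pool (0.25). Its near-identical copy Hspa1b differed by -0.26, with further probe sets at 0.06 and 0.44, so the probe sets of these copies disagree in direction and are uncertain as to the gene. Hspa4, the broadly expressed relative of Hspa4l, was at 1807 in the knockout and 1088 in the wild-type pool (0.73; 0.12 at its other kept probe set). Hsph1 differed by -0.11, or by 0.47 at its other probe set. Hspa14, a ribosome-associated HSP70, differed by -0.12.

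Hsp90aa1, the stress-inducible HSP90 that is also abundant in testis, was higher in the knockout pool at all 3 of its probe sets. The one representing the gene was at 6635 in the knockout and 4146 in the wild-type pool, 1.60-fold. The others were at 4683 and 3665 in the knockout pool, against 2221 and 1587 in the wild-type pool, or 2.11-fold and 2.31-fold. Its count among genes within 2-fold thus depends on the probe set.

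The mitochondrial chaperones differed little between the pools. Hspd1 was at 1710 in the knockout and 2084 in the wild-type pool, and Hspe1, its lid, at 736 in the knockout and 899 in the wild-type pool. These genes are neighbours in GRCm38.p6, and both differed by -0.29 on the log2 scale. Hspa9, the mitochondrial HSP70, differed by -0.38 (-0.09 at its other kept probe set). Among the mitochondrial J-domain genes, Dnajc15 of the import motor was at 1391 in the knockout and 757 in the wild-type pool (0.88), whereas Dnajc30 was at 75.1 in the knockout and 112 in the wild-type pool (-0.58). Dnaja3, Dnajc4 and Dnajc11 differed by 0.09, 0.37 and 0.05, and the other kept probe set of Dnaja3 by -0.38. Over the 8 kept mitochondrial genes of the list, 4 were higher and 4 lower, none by 2-fold, with a median of -0.12 beside -0.08 over all kept genes.

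Small heat shock proteins included the 1 general gene that was at least 2-fold lower. Hspb8, which works with Bag3 to send clients to autophagy, was at 67.9 in the knockout and 201 in the wild-type pool, 2.96-fold lower. Its second kept probe set was at 38.3 in the knockout and 94.3 in the wild-type pool, 2.46-fold lower. Hspb1, the actin-associated small heat shock protein, was at 360 in the knockout and 571 in the wild-type pool (-0.67; -0.43 at its other probe set). Hspb11, which despite its name is a subunit of the intraflagellar transport complex of cilia, was at 269 in the knockout and 184 in the wild-type pool (0.55). The adipocyte markers, with a median of -1.09, and the macrophage markers, with a median of -0.86, were lower in the same pool as Hspb8. Their part in the Hspb8 difference was not tested.

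**Figure D3:**
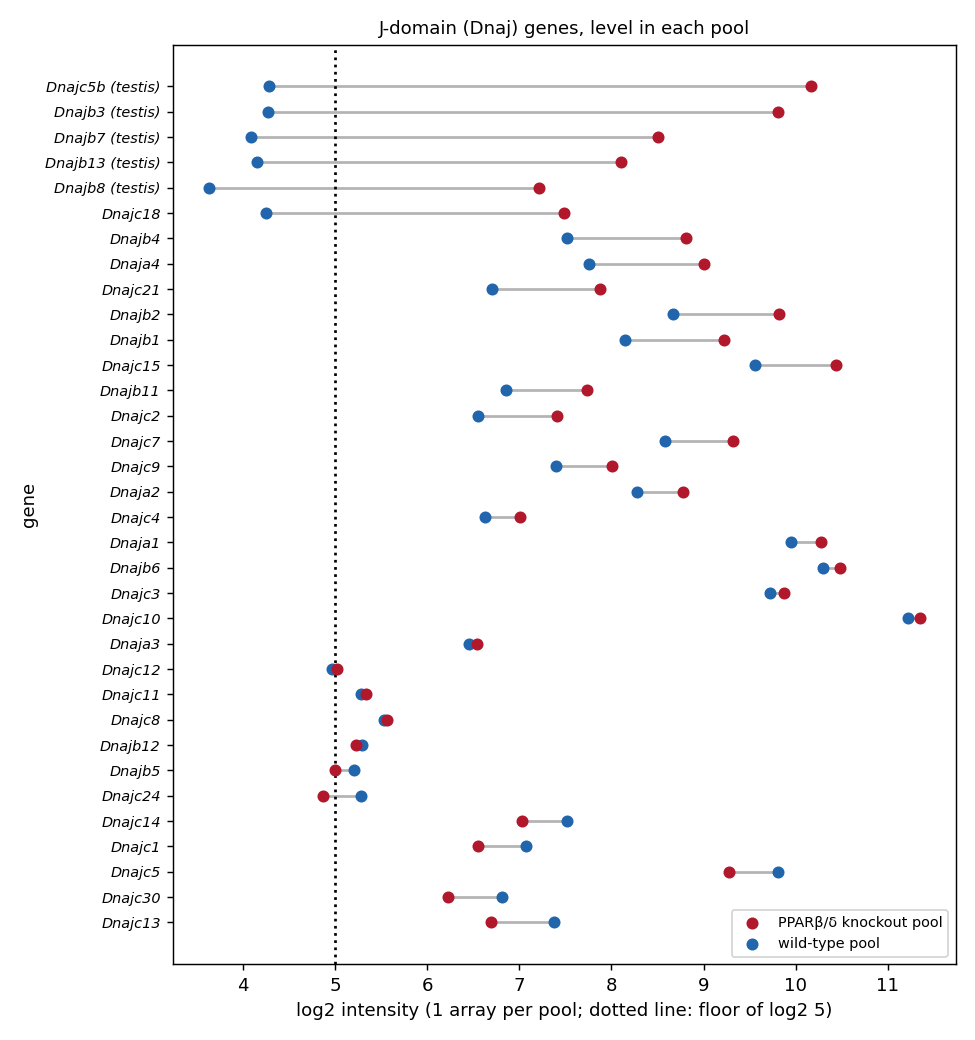
Log2 intensity of each kept J-domain gene in the knockout pool (red) and the wild-type pool (blue), 1 array per pool, sorted by difference with the largest at the top; the dotted line is the floor of log2 5. The 5 testis-enriched genes and Dnajc18 form the top of the plot with wild-type values below the floor, and Dnajc13 stands last at -0.68.

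Of 29 kept general J-domain genes 21 (72.4%) were higher and 8 lower, with a median of 0.19, where 44.4% of all kept genes were higher. The general genes that were at least 2-fold higher were 6 of these 29 (20.7%, against 13.7% of all kept genes); J-domain genes make up most of the general members. Dnajc18 was at 179 in the knockout and 19.0, under the floor, in the wild-type pool, at least 5.60-fold higher, and its second probe set was below the floor in both pools. Dnajc21, a factor of ribosome maturation, was at 236 in the knockout and 104 in the wild-type pool (2.26-fold). Dnajb2, a J-domain protein that binds ubiquitin, was at 906 in the knockout and 408 in the wild-type pool (2.22-fold). Dnajb1, the main heat-inducible partner of HSP70, was at 597 in the knockout and 283 in the wild-type pool (2.11-fold), and its other probe set was at 820 in the knockout and 191 in the wild-type pool (4.29-fold). The last of the 6, Dnajb4 and Dnaja4, had probe sets that disagreed in direction. Over the 13 measured genes of the heat-inducible core, which holds Dnajb1 and Dnajb4, the median was 0.11. In this list 2 genes (15.4%) were at least 2-fold higher and 1, Hspb8 (7.69%), at least 2-fold lower, near the 13.7% and 9.14% of all kept genes.

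By class, general class A genes had a median of 0.41 over 4 genes, class B 0.87 over 7 and class C 0.09 over 18. The class A genes Dnaja1, Dnaja2 and Dnaja3 were within 2-fold, at 0.32, 0.50 and 0.09. The other kept probe sets of Dnaja1 and Dnaja3 differed by -0.35 and -0.38. With the mean over kept probe sets, Dnaja1, Dnaja3 and Dnaja4 were at -0.01, -0.14 and -0.20, and Dnaja2 stayed at 0.50. The class A median thus depends on the choice of probe set. Among class C genes Dnajc2, a ribosome-bound chaperone, Dnajc7, a bridge between HSP70 and HSP90, and Dnajc9, a histone chaperone, differed by 0.86, 0.74 and 0.61. At the low end stood Dnajc13 of endosomes, at 104 in the knockout and 166 in the wild-type pool (-0.68), Dnajc5, the somatic cysteine string protein, at 619 in the knockout and 898 in the wild-type pool (-0.54), and Dnajc14 (-0.50). Other kept probe sets of Dnajc5 differed by -0.47, -0.38, 0.05 and 0.10, and those of Dnajc14 by -1.18 and -0.21. The testis paralog of Dnajc5, Dnajc5b, differed by at least 5.17. In the endoplasmic reticulum, Dnajb11, a partner of the luminal HSP70, was at 212 in the knockout and 116 in the wild-type pool (0.87). Dnajc10, a disulfide reductase, and Dnajc3, which also restrains the kinase PERK, differed by 0.13 and 0.15, Dnajb12 by -0.07 and Dnajc1 by -0.52. The remaining kept genes, Dnajb5, Dnajc8, Dnajc12 and Dnajc24, differed by -0.21, 0.02, 0.05 and -0.42 as measured. The wild-type value of Dnajc12 (31.3) and the knockout value of Dnajc24 (29.1) were under the floor. With these raised to the floor, Dnajc12 differed by 0.02 and Dnajc24 by -0.29. The other kept probe set of Dnajc24 differed by 0.18 as measured.

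For a few members the probe sets of 1 gene gave unlike differences. Of 23 members with several kept probe sets, 13 had all of them in the same direction, and 4 had a range of at least 2 on the log2 scale, which 3.70% of all genes with several kept probe sets had. These 4 were Hspa4l, Dnajb6, Dnaja4 and Dnajb4. Dnaja4 was at 516 in the knockout and 217 in the wild-type pool at its representative probe set. A second was at 142 in the knockout and 345 in the wild-type pool, 2.43-fold lower, and the last at 61.9 in the knockout and 92.2 in the wild-type pool. Opposite differences of at least 2-fold within 1 gene were found in 4 of the 2137 genes (0.19%), Dnaja4 among them.

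Dnajb4 was likewise divided, with 450 in the knockout and 183 in the wild-type pool at one probe set (2.46-fold higher) and 145 in the knockout and 288 in the wild-type pool at the other (1.99-fold lower). For Dnajb6, a J-domain protein that prevents aggregation, the probe set representing the gene was at 1435 in the knockout and 1261 in the wild-type pool, a log2 difference of 0.19. Its 3 other probe sets were at 348, 235 and 120 in the knockout pool, against 72.7, 56.8 and 18.3 in the wild-type pool, or 2.26, 2.04 and 2.72 on the log2 scale. Only the last of these wild-type values was below the floor. The sources used here do not say which transcripts of these genes each probe set reads.

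**Figure D4:**
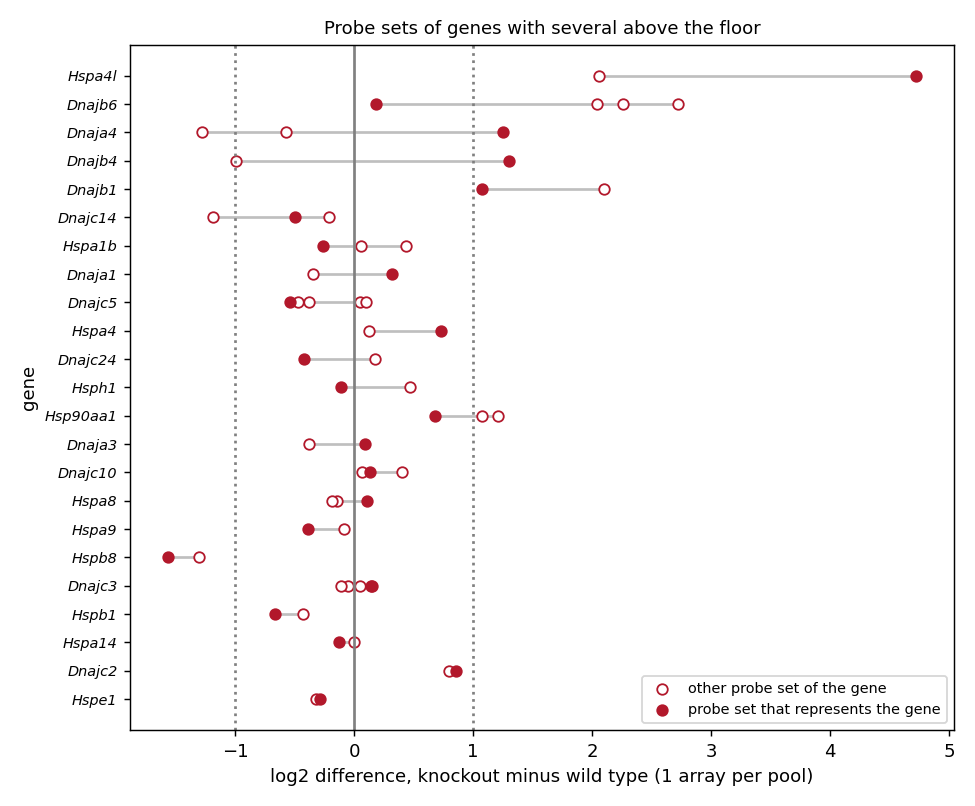
Log2 difference, knockout minus wild type, of every probe set above the floor for the 23 members that have several, sorted by range with the widest at the top; the filled point is the probe set that represents the gene and dotted lines mark 2-fold. Dnaja4 spans -1.28 to 1.25 and Dnajb4 -0.99 to 1.30, and 3 of the 4 Dnajb6 probe sets lie above 2.

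The partners of these chaperones were read from a list of 42 co-chaperones, heat shock factors and related genes, of which 33 were kept. Of these, 15 were higher and 18 lower, with a median of -0.04. At least 2-fold higher were 4 (12.1%, near the 13.7% of all kept genes), and 1 was at least 2-fold lower (3.03%, against 9.14%). Odf1, a small heat shock protein of the sperm tail that is also in the germ cell list, was at 5409 in the knockout and 157 in the wild-type pool (34.4-fold higher). Bag5, a nucleotide exchange factor of HSP70, was at 1120 in the knockout and 54.1 in the wild-type pool (20.7-fold), and Fkbp4, an HSP90 partner of steroid receptors, at 1938 in the knockout and 822 in the wild-type pool (2.36-fold). At the other end Cryab, αB-crystallin, was at 92.7 in the knockout and 474 in the wild-type pool, 5.12-fold lower, with its second kept probe set at -1.40. Chordc1, an HSP90 partner, differed by -0.98 and Serpinh1, the collagen chaperone of the endoplasmic reticulum, by -0.75. Hsf2 and Hsf4 were below the floor in both pools. Bag3, the partner of Hspb8, differed by -0.46.

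**Figure D5:**
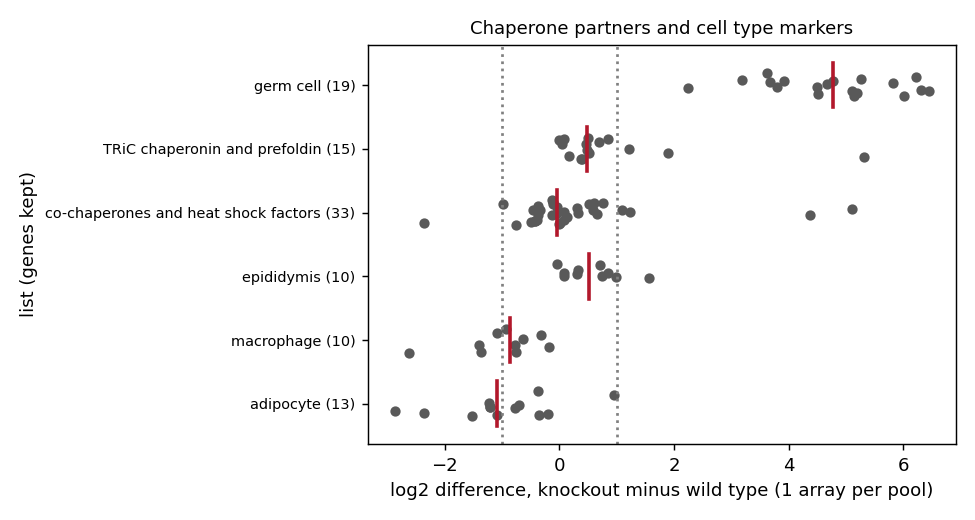
Log2 difference, knockout minus wild type, of each kept gene (points) of 2 lists of chaperone partners and 4 lists of cell type markers, with list medians as red bars and dotted lines at 2-fold. The germ cell list has a median of 4.77 as measured, or 4.51 with values under the floor raised to it. The adipocyte list has one of -1.09, and the co-chaperone list lies at -0.04 with Odf1 and Bag5 far to the right.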

How the data were processed

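Epididymal white adipose tissue RNA from pools of 5 animals was hybridised to 1 Affymetrix array per genotype, per the labels and design text. Per the submitters' processing notes, the authors summarised probe sets with GCRMA 2.20. The deposited intensity values run from 1.91 to 36322, so they are linear. The arrays normalised as 1 batch are not named in the sources used here. GCRMA pulls dim probe sets towards a low common value, which enlarges folds near background.

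The log2 of each intensity was taken (Python 3.11.15, pandas 2.3.3). Symbols were updated by Entrez identifier to GRCm38.p6 records for 20364 of 20393 probe sets naming 1 gene. Genes were kept at log2 5 or more in at least 1 pool, and the kept probe set of highest mean log2 represented each gene, leaving 6533 genes. A fold with its dimmer value under the floor was computed against 32 and is a lower bound. With 1 array per genotype no test was made, and genes at least 2-fold different were counted. Members and lists were chosen with earlier results of these data known. Named by rule were the testis-enriched and Hsp members, the J-domain genes at both ends or of highest mean, and the 3 largest and 3 smallest differences of each partner list; all other genes were named after their values were seen. The alternatives were other floors, other choices of probe set, centring, removal of a lowess trend with mean intensity, and narrower and wider testis-enriched lists. The calculation was checked on simulated data.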

Additional observations from a re-analysis of the deposited data

How the results depend on the processing

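No paired analysis was possible because each genotype is a single pooled array, and no array could be left out. The testis-enriched median of 4.57 stayed positive under all 11 alternatives. These reuse the same arrays, and each of the 8 genes stayed at 2.06 or more under the single-gene alternatives. The direction could thus hardly change, and its staying is no support. At the other floors the median was again 4.57, read from the same probe sets. The median was 4.27 with dim values raised to the floor, and 4.31 with the mean over probe sets or the probe set of smallest difference. As measured it was 5.48 with the narrow list (5 genes, all at least 2-fold higher). With the wide list it was 4.21 as measured (11 genes, 9 at least 2-fold higher). All 5 genes of the narrow list had wild-type values under the floor. With values under the floor raised to it, the medians were 4.33 with the narrow and 3.51 with the wide list. The gap to the general median was 4.15 with dim values raised to the floor. As measured it was 5.33 with the narrow and 4.10 with the wide list. The general median ranged from 0.05 to 0.26, and 4 to 9 general genes were at least 2-fold higher. Of the members at least 2-fold different, those that turned in direction were Dnaja4 (-0.20 with the mean over probe sets and -0.57 with the probe set of smallest difference) and Dnajb4 (-0.99 with the probe set of smallest difference, 0.15 with the mean). Dnajb6 was 1.80 with the mean over probe sets, and Dnajb11, Dnajc15 and Dnajc2 reached 2-fold with the intensity trend removed (1.03, 1.03 and 1.02). A further 10 members, all within 0.54 of 0 as reported, had the opposite sign under some alternative (Dnaja1, Dnaja3, Dnajb12, Dnajc3, Dnajc5, Dnajc12, Dnajc24, Hspa1b, Hspa8 and Hsph1). Of 50 kept members, 44 stayed on their side of 2-fold under each of the 9 single-gene alternatives that gave them a value; 9 members lacked a value under some, 8 of them at the floor of log2 6. Low signal limits the wild-type values of the 6 testis-enriched genes below the floor, whose folds are bounds.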

Other observations

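A further list covered the cytosolic chaperonin TRiC and its delivery factor prefoldin, which fold actin and tubulin, and related genes. Of its 15 measured genes, 14 were higher in the knockout pool. Of all kept genes, 44.4% were higher. The median log2 difference of the list was 0.48, and 3 of its genes (20.0%) reached 2-fold, against 13.7% of all kept genes. Among the 3 was Cct6b, which was kept through the knockout pool alone. Cct6b, a subunit made mainly in testis, was at 477 in the knockout and 11.9, under the floor, in the wild-type pool, at least 14.9-fold higher, whereas its general paralog Cct6a was at 2258 in the knockout and 2184 in the wild-type pool. Tcp1, a TRiC subunit, was at 3957 in the knockout and 1058 in the wild-type pool (3.74-fold), and Cct7 at 1191 in the knockout and 515 in the wild-type pool (2.31-fold). At the low end of the list Vbp1 differed by -0.01, Cct6a by 0.05 and Pfdn2 by 0.08. Pdrg1 differed by 0.16, and by -0.08 at its other kept probe set. Germ cell markers, with a median of 4.77 as measured and 4.51 with values under the floor raised to it, were higher in the same pool. Their part in these differences was not tested.

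The members left out by the rule gave the following values. Hspa5, the HSP70 of the endoplasmic reticulum, differed by 0.28 and 0.21 at its probe sets, Hsp90b1 by 0.32 and 0.48, and Dnajb9 by 0.22. The brighter probe set naming both Dnajc19 and its pseudogene was at 84.0 in the knockout and 92.5 in the wild-type pool. The dimmer was at 8.20 in the knockout and 9.99 in the wild-type pool, under the floor in both. Among the members below the floor in both pools, Dnajc27 was at 25.2 in the knockout and 8.09 in the wild-type pool at one probe set and 20.4 in the knockout and 8.36 in the wild-type pool at the other.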
